A study of Mus musculus with 56 samples.

Results

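The mitochondrial respiratory chain was represented on the MUSV29K nylon microarray by 86 clones of 65 genes, among 7625 named clones of 5883 genes. They were taken by gene symbol, as every spot whose name begins with Nduf, Cox and a digit, Uqcr or Atp5, or is one of Sdha to Sdhd or Cyc1. By complex these were 35 clones for complex I, 5 for complex II, 9 for complex III, 12 for complex IV, 23 for the ATP synthase and 2 for the assembly factors Cox17 and Ndufaf1. The rule takes names, so it also holds Cox4nb, which RefSeq now lists as Emc8 and which is not a subunit, and Cox7a2l, a factor of supercomplexes. Ndufa4 is grouped here with complex I by its symbol, and Atp5s, which RefSeq now lists as Dmac2l, with the ATP synthase. Cytochrome c itself (Cycs) was not among the named spots.

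Lung RNA came from female C57Bl/6J mice, 7 weeks old, all anaesthetised with xylazine and ketamine. Each received 20 µl of oleic acid (OA) or of physiological serum through the tail vein. OA given this way injures the lung from its blood vessels. There were 27 OA mice, 4 at 1 h, 6 at 1.5 h, 7 at 3 h, 4 at 4 h, 3 at 18 h and 3 at 24 h. The 8 serum mice were 2 at 1 h, 1 at 1.5 h, 2 at 3 h, 2 at 18 h and 1 at 24 h. The times were grouped into an early stage (1 and 1.5 h), an intermediate stage (3 and 4 h) and a late stage (18 and 24 h). The 27 OA mice were measured on 50 microarrays, 1 or 2 a mouse, and the 8 serum mice on 9. One further OA microarray could not be tied to a mouse by its labels and did not enter the comparisons. Every mouse was one lung sample, so fewer cells of a type and less RNA per cell cannot be told apart.

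The respiratory chain passes electrons from NADH through complex I, and from succinate through complex II, to complex III, cytochrome c and complex IV, which hands them to oxygen. Complexes I, III and IV pump protons across the inner mitochondrial membrane, and the ATP synthase uses the return of these protons to make ATP. All clones measured here are of nuclear genes. In the lung such genes are active in every cell type, most in cells rich in mitochondria such as alveolar type II cells.

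The promoters of 3 genes on which results below turn (Atp5g1, Ndufb7 and Sdha), and that of Sdhb as an example with the NRF1 motif, are shown as RefSeq gives them for GRCm38.p6, as the 150 bases before the start of transcription. Capitals mark a match to GCGCATGC, part of the site of the factor NRF1, or to CCGGAAG, the core of an ETS factor site, each read on both strands. Atp5g1 and Sdha hold neither in this stretch, Ndufb7 holds the ETS core 20 bases before the start, and Sdhb holds the NRF1 motif.
Atp5g1 (chr11:96075632-96075781, minus strand): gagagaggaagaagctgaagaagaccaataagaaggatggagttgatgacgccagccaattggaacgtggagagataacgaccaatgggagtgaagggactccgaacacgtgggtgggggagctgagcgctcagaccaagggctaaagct
Ndufb7 (chr8:83566608-83566757, plus strand): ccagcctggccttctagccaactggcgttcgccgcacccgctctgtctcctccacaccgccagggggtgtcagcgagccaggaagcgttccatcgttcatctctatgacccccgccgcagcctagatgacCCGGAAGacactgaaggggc
Sdha (chr13:74350241-74350390, minus strand): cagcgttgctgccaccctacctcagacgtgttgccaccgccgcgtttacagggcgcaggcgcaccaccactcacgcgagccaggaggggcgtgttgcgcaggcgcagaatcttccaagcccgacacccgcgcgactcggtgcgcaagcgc
Sdhb (chr4:140961121-140961270, plus strand): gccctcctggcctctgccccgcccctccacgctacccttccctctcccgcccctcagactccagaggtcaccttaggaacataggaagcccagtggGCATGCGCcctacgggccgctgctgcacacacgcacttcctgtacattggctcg
RefSeq promoters, from 250 bases before to 50 after the start, were at hand for 52 of the 65 genes. The NRF1 motif lay in the promoter of 6 of these 52 genes (11.5%), against 3.05% of 27025 genes in all. The ETS core lay in that of 15 (28.8%), against 9.93%. These are matches of letters and not shown to be sites.

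Most respiratory chain clones gave a clear signal. The mean of 72 of the 86 clones was above the 95th percentile of 2159 spots without a gene symbol, called empty spots here. The study spotted more clones than the named ones, so these spots may include clones without a symbol. The limit may then lie above the background. On a single OA microarray 53.5% to 88.4% of the members passed the same limit, against 21.3% to 45.2% of all named clones. In the values that the authors deposited, which are log2 signals, the brightest clone of the ATP synthase was Atp5b, its catalytic beta subunit, with a mean of 11.78. In complex IV it was a clone of Cox4i1, the common form of subunit IV, with 11.28. Uqcrh, the hinge protein of complex III, was at 10.46, the flavoprotein Sdha of complex II at 10.41, and Cox17, a copper chaperone for complex IV, at 10.14. Clones differ in length and labelling, so these levels do not rank the genes. The tissue-specific forms Cox4i2, Cox6a2, Cox7a1 and Cox8b were not among the named spots.

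A few properties of the whole set bear on what follows. Of 8 listed genes of lung epithelium, 3 were on the microarray, the surfactant and type II cell genes Sftpd, Napsa and Slc34a2. Over the time points shared with serum, Sftpd was lower in OA mice, at -0.36 (limma adjusted p = 0.0191). Slc34a2 was higher, by 0.75 (limma adjusted p = 9.56e-07), and Napsa was at 0.25 (limma adjusted p = 0.191). Summed, the 3 were at a log2 signal of 13.87 to 14.38 over the OA mice, and of 13.01 to 14.60 over the serum mice. The lowest of these values was the first serum mouse at 3 h, which stood apart. Its microarray was dim, with a median log2 intensity of 5.73 before normalization. On it 38.4% of the members passed the limit of the empty spots, the lowest share of the serum microarrays, whose median was 76.7%. In this mouse the median member lay 0.248 below its mean over all 35 mice, and the median of all named clones 0.131 below. The mouse names hold a number after the letter L, taken as a lot and not explained in the sources used here. All 6 late mice were of lot 1 and none of the 10 early mice was, so that the late stage and lot 1 overlap.

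Over the 6 time points after OA, the respiratory chain as a whole showed no shift beyond the spread between mice without the lot in the fit. The median member differed by 0.014 (log2) between the intermediate and early stages, by 0.025 between late and early, and by -0.009 between late and intermediate. The medians over all named clones were close to 0 as well, at -0.001, -0.002 and -0.003. With the lot as a block the member medians were 0.042, 0.126 and 0.096, against 0.000, -0.002 and 0.006 for all clones. Without the 24 h mice the last 2 of them were -0.032 and -0.057. Taken per mouse, as the median over the 86 clones of the deviation from each clone's mean, the level was -0.04 ± 0.11 (SD, n = 4) at 1 h and 0.05 ± 0.08 (n = 6) at 1.5 h. It was -0.03 ± 0.13 (n = 7) at 3 h, 0.08 ± 0.13 (n = 4) at 4 h, -0.03 ± 0.03 (n = 3) at 18 h and 0.05 ± 0.05 (n = 3) at 24 h. These means lie within the spread between mice of 1 time point.

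**Figure D1:**
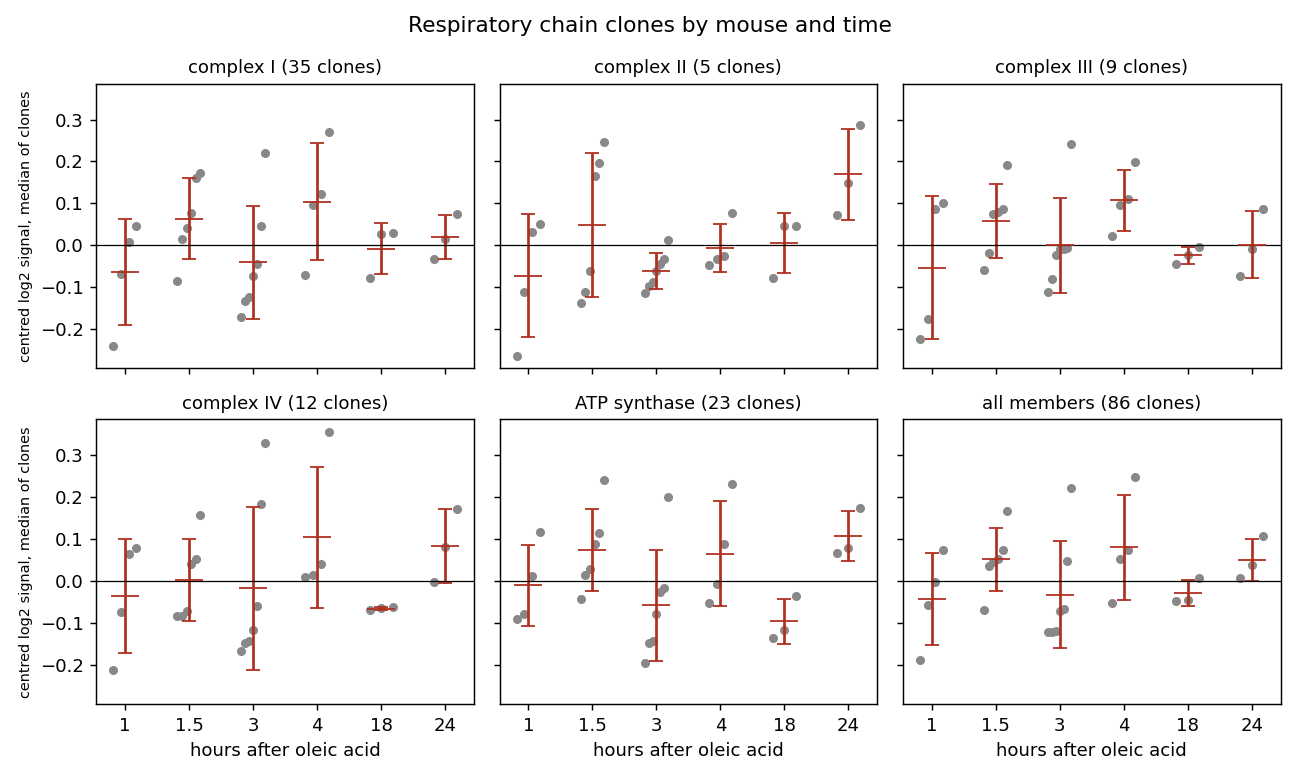
Deviation of the respiratory chain clones from their mean over 27 OA mice (y axis, log2 signal, median over the clones of each complex) against hours after OA (x axis, evenly spaced categories). Grey points are mice, red bars the mean ± SD, and in the panel of all 86 clones the time point means lie between -0.04 and 0.08.

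The moderated F test of limma across the 6 time points, adjusted over all 7625 clones, called 1 member, against 2.01% of all clones. At an unadjusted p under 0.05 it gave 9 of 86 members, against 1208 of all clones. No member was called between the intermediate and early stages, where 2.57% of all clones were, and 5 members had an unadjusted p under 0.05 there. In the comparison of late with early 1 member was called against a background of 1.65%, and 13 had an unadjusted p under 0.05. In that of late with intermediate it was 1 member against 3.19%, and 9 with an unadjusted p under 0.05. For these stage comparisons the unadjusted counts were not made over all named clones, so they have no background to be read against. The standard error of a member's late minus early difference was 0.12 in the median. Differences well above that size were not called either, such as -0.32 for Atp5o and 0.64 for Atp5g1. The lack of a call therefore does not exclude shifts of such sizes in a single clone.

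Seen by complex, each group had clones on both sides of 0 in late minus early. The late stage averages 18 and 24 h, which were not alike in every complex. Per mouse, the median ATP synthase clone deviated by -0.136 to -0.036 at 18 h and by 0.067 to 0.175 at 24 h (n = 3 each). Complexes II and IV were also higher in all mice at 24 h than in those at 18 h, while complexes I and III overlapped. This difference was not tested. The 35 clones of complex I had a median late minus early difference of 0.025, and apart from 1 clone of Ndufb7 none was called. The 5 clones of complex II, the succinate dehydrogenase, had 0.184, the highest of the complexes, with Sdhc, a membrane anchor, at 0.35 (adjusted p = 0.0793). The 9 clones of complex III had 0.093, and both clones of Uqcrb, a small subunit of this complex, lay below 0 at -0.30 and -0.28 without passing the test. The 12 clones of complex IV had 0.043. The 23 clones of the ATP synthase had -0.002, and their lowest value was that of Atp5o, the subunit that couples the catalytic head of the enzyme to its membrane part, at -0.32 (adjusted p = 0.0632). Atp5a1, its alpha subunit, was at 0.45 (adjusted p = 0.082), and Atp5g1, which codes for the membrane ring subunit c, at 0.64 ± 0.20 (SE, adjusted p = 0.0913).

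The called member was one of the 2 clones of Ndufb7, an accessory subunit of complex I. In the deposited log2 values the clone at spot 2811 was at 10.37 ± 0.39 (SD, n = 4) at 1 h, 10.75 ± 0.46 (n = 6) at 1.5 h, 10.82 ± 0.69 (n = 7) at 3 h, 11.36 ± 0.45 (n = 4) at 4 h, 11.24 ± 0.47 (n = 3) at 18 h and 12.80 ± 0.015 (n = 3) at 24 h. All 3 mice at 24 h lay above every other OA mouse. The moderated F test of limma gave an adjusted p of 0.00289. The clone was higher in the late than in the early stage by 1.46 ± 0.25 (SE, limma adjusted p = 0.00361) and higher than in the intermediate stage by 0.93 ± 0.24 (limma adjusted p = 0.0357). Without the mice at 24 h the first difference was 0.68 (limma adjusted p = 0.353), and with the lot as a block it was 0.73 (limma adjusted p = 0.998). Within lot 1 the late mice were 0.45 above the intermediate ones. The late minus intermediate call was lost without any 1 of 10 mice (P6L1, P7L1, P8L1, P11L1, P12L1, P7L3, P8L3, P9L3, P12L3 and P13L3), with a difference of 0.80 to 1.04 over all 27 omissions.

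The second clone of Ndufb7, at spot 2018, did not show this course. Its deposited means lay between 9.60 and 9.87 over the 6 time points (limma F, adjusted p = 0.784), and over the 27 OA mice it correlated with the first at r = -0.13. The serum mouse at 24 h was also the highest of its treatment. On the scale normalized over all 60 microarrays, the clone at spot 2811 was at 12.74, 12.75 and 12.77 in the OA mice at 24 h and at 13.20 in the serum mouse of that time. The other 7 serum mice lay between 9.20 and 10.92, with those at 18 h at 9.20 and 9.61, while OA gave 10.77, 10.99 and 11.70 at 18 h. The OA minus serum difference of this clone over 5 time points was 0.37 and not called.

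**Figure D2:**
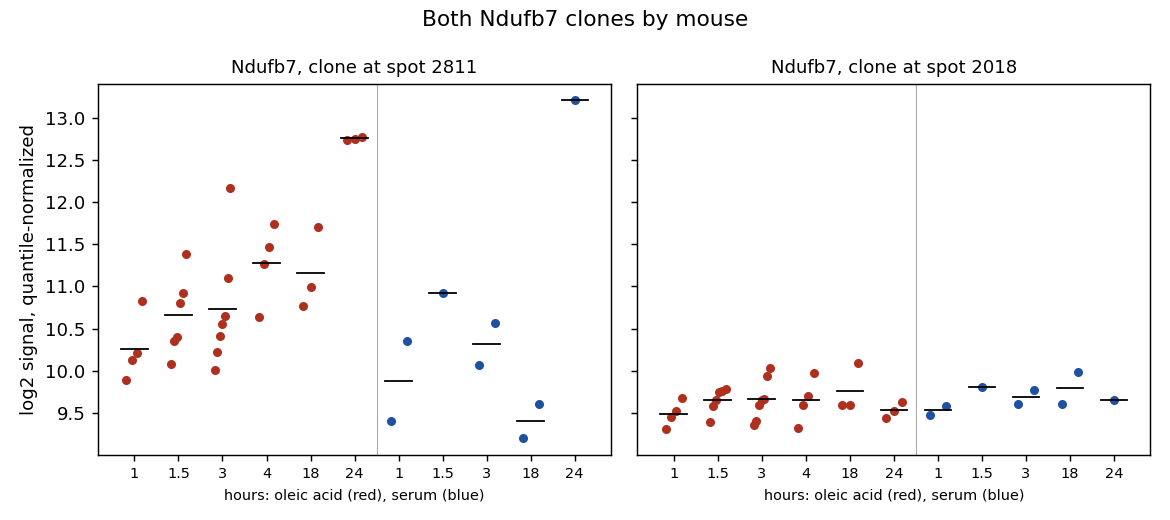
Log2 signal (y axis, quantile-normalized over 60 microarrays) of both Ndufb7 clones in each mouse, by hours after injection (x axis) of OA (red) or serum (blue), with the group mean as a bar. In the clone at spot 2811 the 24 h mice of both treatments are the highest, between 12.74 and 13.20, and in the clone at spot 2018 they are not.

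The clones most like the one at spot 2811, by Pearson's r over the 27 OA mice, were those of Tcea1 (0.96), Es1 (0.95), Gc (0.95), Apoh (0.94) and Serpinc1 (0.94). The mice share time points, and without those at 24 h these values were 0.91, 0.89, 0.89, 0.87 and 0.89. Gc, Apoh and Serpinc1 code for plasma proteins made by hepatocytes. A list of hepatocyte genes, drawn up after this was seen, had 13 clones of 12 genes on the microarray. Of these, 10 were called by the F test, against 2.01% of all clones. In the late stage 10 were higher than in the early stage, against 1.18%, among them the albumin clone (Alb1), by 1.71 (limma adjusted p = 0.0386). The list holds Es1, Gc, Apoh and Serpinc1 themselves, so these counts were in part fixed by the choice and are no independent result. Summed, the list was at a log2 signal of 14.23 to 14.49 in the OA mice at 24 h and 14.15 in the serum mouse at 24 h. In the other 24 OA mice it was 12.00 to 13.84 and in the other 7 serum mice 11.52 to 12.58. Whether this has a part in the signal of the clone at spot 2811 was not tested.

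The spread of 3 other members was large between the 2 microarrays of a single mouse. In the 23 OA mice with 2 microarrays, the median member had a standard deviation of 0.241 within a mouse, against 0.23 between the 27 mice. For Ndufs6, an accessory subunit of complex I, the standard deviation was 1.45 within and 1.46 between mice, and the 2 microarrays of one mouse differed by up to 5.72. For Cox7a2, the common form of subunit VIIa of complex IV, it was 1.40 and 1.16, and for Atp5j2, subunit f of the ATP synthase, 1.28 and 1.00. The share of members above 1 within a mouse was 3.49%, and that of all named clones 1.56%. Spots beside them varied too. Within a mouse Waspip, next to Ndufs6, had a standard deviation of 1.17, and Abhd12, next to Atp5j2, one of 2.96. The mouse means of Ndufs6 ran from 5.25 to 10.63 with a median of 10.04.

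**Figure D3:**
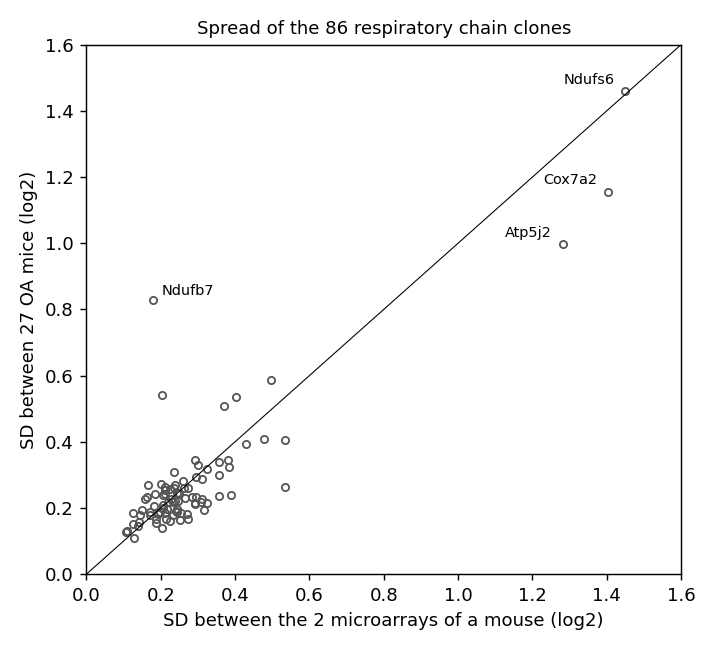
Standard deviation of each of the 86 clones between the 2 microarrays of a mouse (x axis, 23 OA mice) and between the 27 OA mice (y axis), in log2 units, with the line of equality. Ndufs6, Cox7a2 and Atp5j2 lie above 1 within a mouse, and Ndufb7 at spot 2811 stands out by spread between mice alone.

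Against serum the picture was mixed, with subunits on both sides of 0. Over the 5 time points that both treatments share, limma called 20 members higher and 15 lower in OA mice, at shares of 23.3% and 17.4%. Of all named clones 34.3% were higher and 27.3% lower, and both shares of the members lay below this background. The median member was at 0.019 and the median clone at 0.048. The balance of directions depended on the scaling. With each microarray centred on its median, 12 members were higher and 39 lower, at shares of 14% and 45.3% against 28.4% and 36.9% of all clones, so that the share of lower members then lay above the background. The medians were then -0.191 for the members and -0.062 for all named clones. Since 61.6% of all clones differed between the treatments, and the serum mice of a time point were 1 or 2, a difference between sets of microarrays and the injection cannot be told apart.

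**Figure D4:**
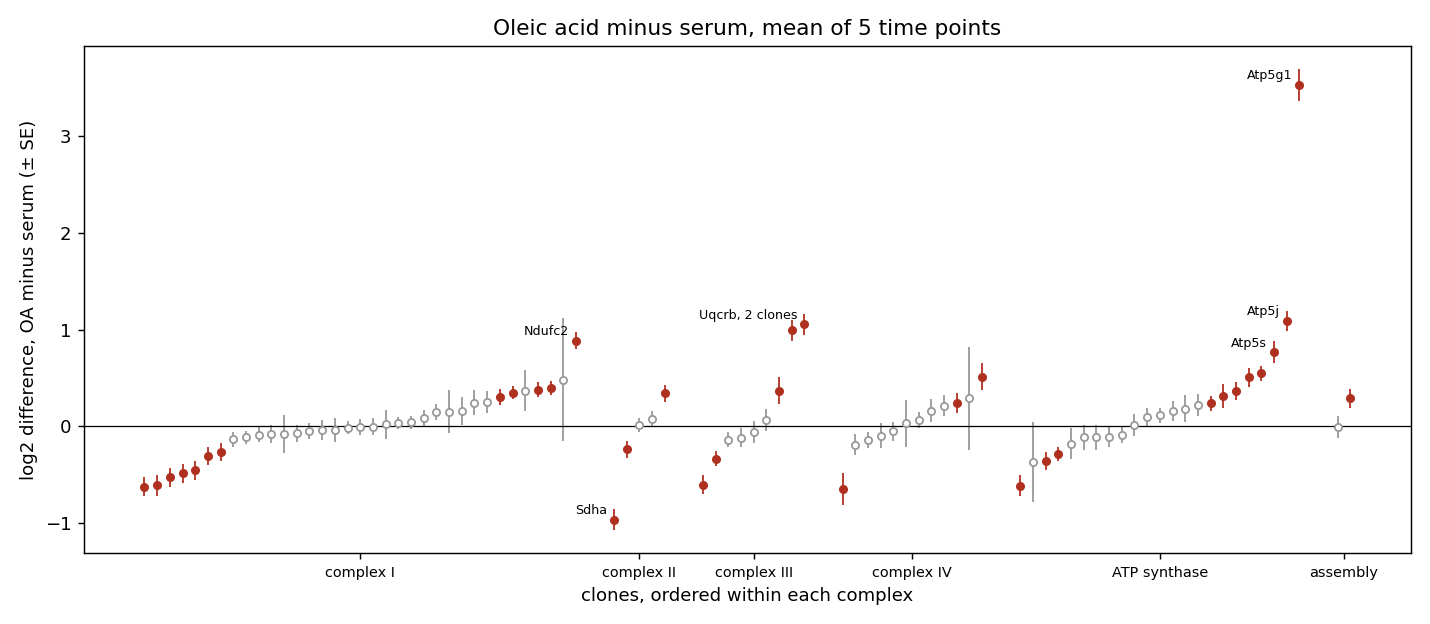
Log2 difference between OA and serum mice (y axis, mean of 5 time points ± SE) for each of the 86 clones, ordered within their complex (x axis). Filled red points passed the adjusted threshold, 20 above and 15 below 0, and Atp5g1 lies highest at 3.53.

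Early, 21 members were called (24.4%, against 38.3% of all clones), 11 higher and 10 lower. At 3 h there were again 21 (24.4%, against 40.1%), 13 higher and 8 lower, or 9 and 4 when the first serum mouse of that time was omitted and 16 and 5 when the second was. Early, the lower count was 6 without the first serum mouse at 1 h. In the late stage there were 24 (27.9%, against 40.4%), 13 higher and 11 lower. With the fitted signal at calculated diameter far fewer clones were called, 22.1% of the members against 24.4% of all clones for the mean of 5 time points, 9.3% against 6.99% early, 11.6% against 7.91% at 3 h and 6.98% against 10% late. No member's OA minus serum difference changed between the early and late stages in limma's test of that difference, where the lowest adjusted p was 0.43 and 5 members had an unadjusted p under 0.05. Between the early stage and 3 h it was 0.391 and 4 members. The same tests called 2 and 0 of all 7625 clones, with 629 and 613 at an unadjusted p under 0.05.

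Atp5g1 differed most. This gene codes for one of several copies of subunit c, the proton-carrying ring of the ATP synthase, and had 1 clone. In OA mice its normalized log2 signal had a lowest value of 8.96, a median of 10.42 and a highest of 11.12. In serum mice it was 6.43 and 6.85 at 1 h, 7.40 at 1.5 h, 6.75 and 7.00 at 3 h, 6.90 and 6.97 at 18 h and 6.37 at 24 h. The groups did not overlap. The signal was above the limit set by the empty spots on 50 of 51 OA microarrays and on 0 of 9 serum microarrays. Against that limit it was at least 2.35-fold higher in OA mice (limma adjusted p = 2.31e-16 for the measured difference). Among OA mice it was lowest at 1.5 h, at 9.94 ± 0.50 (SD, n = 6, deposited values), and highest at 4 h, at 10.91 ± 0.28 (n = 4), a course that did not pass the F test (adjusted p = 0.146, limma).

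Uqcrb had 2 clones, which were called in the same direction. At spot 7994 the signal was 9.83 to 10.87 in OA mice, with a median of 10.20. In serum mice it was 9.06 and 9.60 at 1 h, 9.28 at 1.5 h, 8.83 and 9.32 at 3 h, 8.85 and 9.07 at 18 h and 9.05 at 24 h. At spot 2469 the OA mice ran from 9.44 to 10.39 and the serum mice from 8.50 to 9.27. Neither clone showed overlap between the treatments. They were above the limit of the empty spots on 51 and 50 of 51 OA microarrays. Each passed it on 4 of 9 serum microarrays, so that the serum signals lie near that limit. The differences were 1.05 ± 0.11 (SE, limma adjusted p = 4.35e-09) and 0.99 ± 0.11 (limma adjusted p = 6.16e-09), and both clones were called early, at 3 h and late.

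The clones of Sdha differed most against serum among the genes with several clones. The clone at spot 7320 was lower in OA mice, at a difference of -0.97 ± 0.11 (SE, limma adjusted p = 1.51e-08). Its OA mice lay between 8.75 and 9.92, and its serum mice at 10.28 and 10.51 at 1 h, 10.43 at 1.5 h, 10.55 and 10.74 at 3 h, 9.75 and 10.19 at 18 h and 10.74 at 24 h. The groups overlapped only through 1 of the serum mice at 18 h. The clone at spot 6898 was higher by 0.34 ± 0.08 (limma adjusted p = 0.00101), with OA mice between 9.57 and 10.59 and serum mice between 9.72 and 10.20. The deposited files do not tell which part of the transcript a clone covers.

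**Figure D5:**
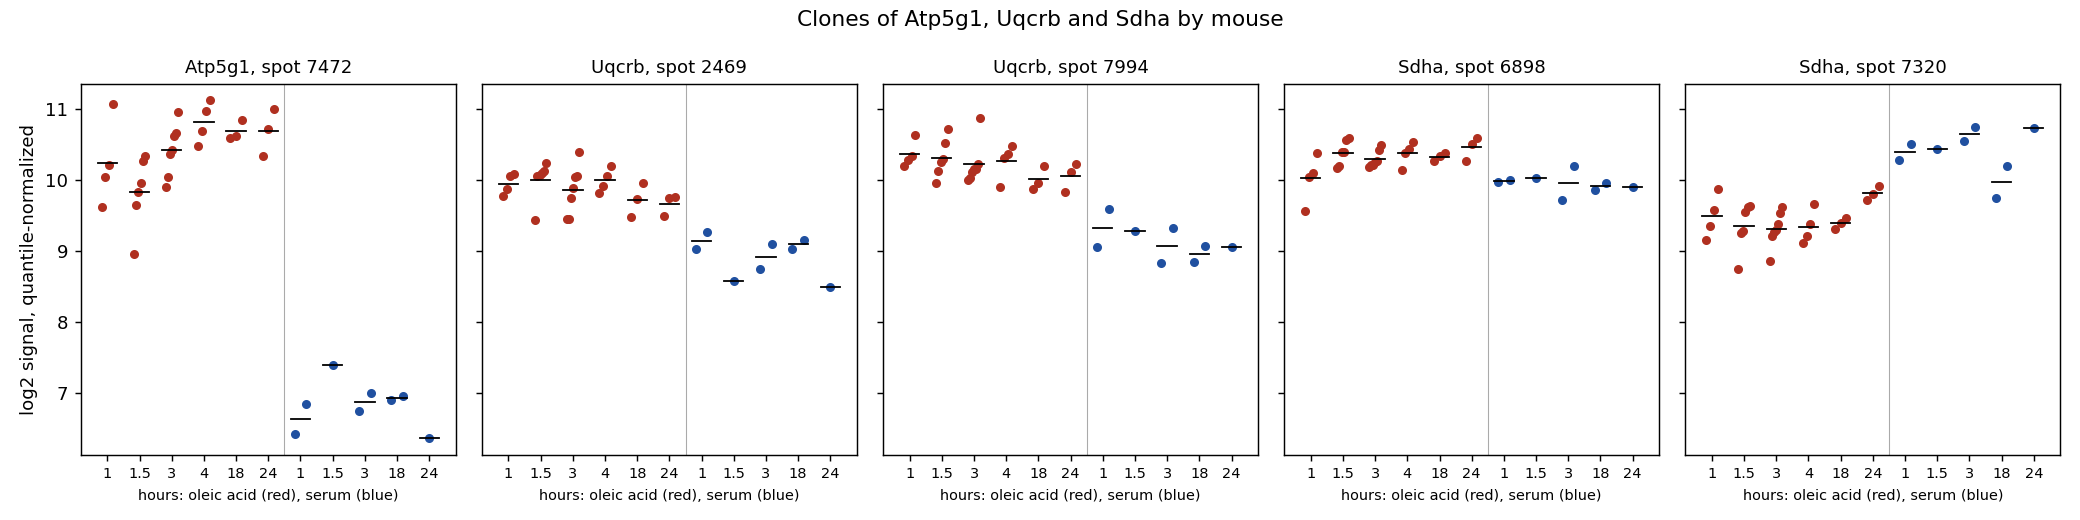
Log2 signal (y axis, quantile-normalized over 60 microarrays) of clones of Atp5g1, Uqcrb and Sdha in each mouse, by hours after injection (x axis) of OA (red) or serum (blue), with the group mean as a bar. The serum mice lie below the OA mice for Atp5g1 and both Uqcrb clones, and above them for the Sdha clone at spot 7320, apart from 1 serum mouse at 18 h, while for that at spot 6898 the treatments overlap.

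In the list as a whole, 16 genes had 2 or more clones, 37 clones in all. In 8 of these genes the clones had the same sign against serum, and in 1, Uqcrb, all were called in one direction. In 3 genes, Atp5b, Sdha and Uqcrfs1, clones were called in opposite directions. The lowest correlation between clones of a gene over the 27 OA mice was 0.12 in the median gene, with 0.74 for Uqcrb and -0.08 for Sdha.

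Of the 35 clones of complex I, 5 were higher and 7 lower than serum, where 34.3% and 27.3% of all named clones were. Higher were the accessory subunits Ndufc2 (spot 1036), Ndufb2, Ndufb6 and Ndufc1, by 0.88, 0.40, 0.38 and 0.35, and Ndufa4 by 0.30. Lower were Ndufb10, Ndufb11 and Ndufa7, at -0.63, -0.61 and -0.53, and the core subunits Ndufs3 and Ndufs1, at -0.48 and -0.45. Ndufa12 at -0.26 and Ndufb8 at -0.31 completed them. Ndufb11 was the only member whose OA mice, at 9.50 to 10.49, all lay below the serum mice, at 10.58 to 11.09. Ndufc2 at spot 1036 and Ndufb8 were not above the limit of the empty spots on any microarray. Ndufb2 was above it on 12 of 51 OA and 0 of 9 serum microarrays. Ndufa7 was above it on 2 of each treatment and Ndufs3 on 6 and 4. These signals lie near or below that limit. The brighter clone of Ndufc2 was at -0.08. The signs of Ndufc1 and Ndufs1 turned when the fitted signal at calculated diameter was used, to -0.19 and 0.15.

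In complexes II and III, Sdhb, the iron-sulfur subunit, was at -0.24 beside the clones of Sdha. Uqcrc1, a core protein of complex III, was lower, at -0.60, with OA mice between 9.35 and 10.15 and serum mice between 10.00 and 10.60. Of the 3 clones of Uqcrfs1, the Rieske iron-sulfur protein, one was at 0.37 and another at -0.33, the latter above the empty spots on 1 of 60 microarrays. In complex IV, Cox7b was higher by 0.51 and Cox7c by 0.24, and one of the Cox4i1 clones was at -0.65 (limma adjusted p = 0.00127). Its OA mice ran from 9.67 to 11.74 with a median of 11.05 and its serum mice from 11.36 to 11.95. The other Cox4i1 clone was at -0.10 and not called. Cox7c turned to -0.10 with the fitted signal at calculated diameter and was not called when any 1 of 15 mice was omitted. Cox17 was higher by 0.29.

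Of the 23 clones of the ATP synthase, 8 were higher and 3 lower. Among all named clones the shares were 34.3% and 27.3%. Beside Atp5g1, 3 of the 4 clones of Atp5j, the coupling factor F6, were higher, by 0.50, 0.55 and 1.09. The last of them was not above the empty spots on any microarray. The clone at spot 4780 was at 10.13 to 10.72 in OA mice and at 9.27 to 10.11 in serum mice, with no overlap (limma adjusted p = 1.14e-06). Atp5o was higher by 0.24 and Atp5f1, of the peripheral stalk, by 0.31. Atp5s, now Dmac2l in RefSeq and not above the limit of the empty spots on any microarray, was higher by 0.77. Lower were Atp5c1, the gamma subunit of the central stalk, at -0.62, and Atp5e, the epsilon subunit, at -0.36. The 4 clones of Atp5b lay at 0.22, 0.36, -0.11 and -0.29, of which the second and the fourth were called. Centred on the median, Atp5b at spot 4630 turned to -0.14 and Atp5f1 to -0.13, and with the fitted signal at calculated diameter Atp5b at spot 8055 turned to 0.73.

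In all, the OA mice lay entirely above the serum mice for 5 members (5.81%), against 7.62% of all named clones, and entirely below for 1 (1.16%), against 5.08%. Of the 35 called members, 27 were above the empty spots on at least 30 of the 60 microarrays and 4 on none. The call and direction held for 12 of the 35, 7 higher and 5 lower, under each alternative setting in which the clone was tested and in each of the 33 omissions of a mouse that could be computed. The same was not counted over all named clones, so the 12 have no background to set beside them. Of these 12, 3 were dim (Atp5j at spot 402, Ndufc2 at spot 1036 and Ndufb8) and not tested where dim clones were left out. Those among them above the empty spots on at least 30 of the 60 microarrays were Atp5g1, both clones of Uqcrb, Ndufb6 and Atp5j at spot 4780 on the higher side. On the lower side they were Cox4i1, Sdha at spot 7320, Atp5c1 and Ndufb10. On the 9 serum microarrays, Atp5g1 passed the limit on 0, each Uqcrb clone on 4 and Ndufb6 on 2.

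Of 15 listed genes of striated muscle, a tissue rich in mitochondria, 3 were on the microarray, and they differed between the treatments as well. Acta1, skeletal muscle actin, was higher in OA mice by 2.02 and Mylpf, a fast myosin light chain, by 0.85, while Myh7, a slow myosin heavy chain, was lower, at -0.44. The 3 clones summed to a log2 signal of 11.70 to 12.88 in OA mice and 10.50 to 11.20 in serum mice. Acta1 alone had group means of 11.65 to 11.82 in OA and 9.49 to 10.07 in serum mice, so the separation of the sums is mostly that of this clone. The serum group means of Mylpf, at 8.07 to 8.86, lay below the median limit of the empty spots, 8.98. Among all named clones 34.3% were higher and 27.3% lower. Of 5 neutrophil clones 2 were higher, Ltf by 0.24 and Il1r2 by 0.59. The group means of these 2 reached 8.82 and 8.40 at most, below 8.98 as well. The brighter S100a8 and S100a9, at 0.15 and 0.21, were not called (limma adjusted p = 0.71 and 0.556). The 5 clones summed to 11.64 to 15.17 in OA and 11.97 to 13.57 in serum mice. Of 19 red cell clones 5 were higher and 3 lower, with sums of 17.75 to 17.94 and 17.60 to 17.95. Adipoq, a gene of adipocytes, was not above the limit of the empty spots in any mouse. Whether these cells have a part in the differences of the respiratory chain was not tested.

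Other mitochondrial genes are given for comparison. Among all named clones 2.01% were called by the F test, and 34.3% were higher and 27.3% lower than serum. Of 60 clones of the mitochondrial ribosome, 0 were called by the F test over time and 13 were higher and 17 lower than serum, with a median of -0.03. Of 32 clones of the tricarboxylic acid cycle and pyruvate entry, 8 were higher and 12 lower, with a median of -0.12. Among 10 clones of carriers and pores, 2 were higher and 2 lower, and among 7 of regulators of mitochondrial biogenesis 2 and 1. Of the 14 clones of glycolysis, the other route to ATP, 2 were higher and 4 lower, with a median of -0.14. Of 5 clones for assembly and electron entry outside the naming rule, 1 was higher and 1 lower.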

How the data were processed

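Lung RNA labelled with 33P was hybridised to nylon microarrays, and the authors quantified the images with Bzscan2, corrected neighbourhood effects and local background and applied quantile normalization. They deposited log2 values (1 column per OA microarray) and, per microarray, spot intensity on a linear scale. Whether the intensities include the background correction is not given in the sources used here. Rank correlations of 0.99999 to 1 tied the deposited OA columns to the constant-diameter image signal.

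The time course was tested on the deposited log2 values and the comparison with serum on the image intensity, floored at 1, log2-transformed and quantile-normalized over 60 microarrays. Microarrays of a mouse were averaged. The 7625 named clones were fitted with limma 3.58.1 in R 4.3.3 (lmFit, eBayes), with Benjamini-Hochberg adjustment at 0.05 over all of them and 1 shared estimate of the spread, to which the serum mice add 3 degrees of freedom. The code was tested on simulated data.

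Microarray P7L3, labelled 3 h in its title and 1.5 h in its source, was taken as 3 h. The labels do not give the number of serum mice, which comes from the study's design, and serum mice are numbered here by microarray. Symbols were kept as spotted, and 65 of 65 genes matched RefSeq. The genes named are, per comparison, the 5 called members with the largest difference in each direction, the brightest clone of each complex, genes with several clones and forms of complex IV, and the other called members by complex. Members and lists were chosen with earlier results of these data known, and the hepatocyte list after the values of Ndufb7. Alternatives were the lot as a block, the image intensity for the time course, median centring, both fitted signals, leaving out dim clones, the conflicting microarray, single mice or the 24 h mice, and adding the unresolved microarray. Precision is limited by the number of microarrays.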

Additional observations from a re-analysis of the deposited data

Results flagged for a closer look

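In 10 of 84 groups of 4 to 7 OA mice, over 21 clones, one mouse lay farther from its neighbour than Dixon's 95% critical value allows, where chance gives about 1 in 20. All values are deposited log2 signals. Mouse P4L2 at 1 h was at 9.75 for Cox4i1 (spot 1536; nearest 11.02) and at 7.76 for Ndufa7 (nearest 8.45). Mouse P8L3 at 3 h was at 11.08 for Uqcrh (nearest 10.52) and at 10.96 for Uqcrb at spot 7994 (nearest 10.33). Cox7a2 was at 8.38 in mouse P3L2 at 1 h (nearest 10.44) and at 6.13 in mouse P6L2 at 1.5 h (nearest 9.70). Cox8a was at 8.54 in mouse P7L2 at 1.5 h (nearest 10.59). Uqcrb at spot 2469 was at 9.55 in mouse P4L3 at 1.5 h (nearest 10.17). Cox17 was at 10.60 in mouse P13L3 at 4 h (nearest 10.13). Atp5j at spot 402 was at 7.47 in mouse P7L3 at 3 h (nearest 7.88). None of these clones was called over the time course.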

How the results depend on the processing

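Over the time course, the 1 member called by the F test, in late minus early and in late minus intermediate fell to 0 in each of the 3 with the lot as a block or, an alternative chosen after seeing the data, without the 24 h mice. With dim clones left out 1 member was lower in late minus early in place of 0. With the lot as a block the median late minus intermediate difference was 0.096 in place of -0.009 and the late minus early one 0.126 in place of 0.025. Leaving out single mice, the F test called 1 to 2 members (2 without P4L2), intermediate minus early 0 to 1 higher (1 without P4L2 or P4L3) and 0 lower, late minus early 1 to 4 higher (4 without P4L3, 2 without P10L1 or P4L2) and 0 to 1 lower (1 without P4L1 or P4L3), and late minus intermediate 0 to 2 higher (2 without P10L1) and 0 to 1 lower (1 without P4L1), with medians of -0.009 to 0.040, -0.011 to 0.045 and -0.032 to 0.030.

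Against serum, centring on the median gave 12 higher and 39 lower members for the mean of 5 time points. It gave 6 and 29 early, 21 lower at 3 h, and 6 and 24 late. Lower members were 33.7% early, 24.4% at 3 h and 27.9% late, against 24.7%, 22.1% and 26.4% of all clones. Higher members were 6.98%, 11.6% and 6.98%, against 20.1%, 17% and 19.2%. The member medians were -0.191, -0.253, -0.125 and -0.235, against -0.062, -0.053, -0.056 and -0.081 for all clones. The fitted signal at calculated diameter called 19 members in place of 35 for the mean, of which 15 kept their call and direction, and gave 5 lower for the mean, 5 higher and 3 lower early, 8 and 2 at 3 h, and 5 and 1 late, with medians of 0.130 for the mean and 0.133 early. At constant diameter 6 were lower late. With dim clones left out 7 were higher early, 5 lower at 3 h and 7 lower late, and with 18 h alone (also chosen after seeing the data) 7 were lower late. Single mice left out gave 18 to 21 higher and 14 to 17 lower for the mean, 8 to 12 and 6 to 11 early, 9 to 16 and 4 to 9 at 3 h, and 11 to 14 and 9 to 11 late, with medians of 0.003 to 0.046, -0.028 to 0.040, -0.041 to 0.274 and 0.010 to 0.038. The mean could not be computed without the only serum mouse at 1.5 or at 24 h. Of the values of called clones under alternative settings, 206 stayed on their side of the threshold, 37 lost the call and 6 turned. The 6 were Atp5b at spots 4630 (-0.143) and 8055 (0.727), Atp5f1 (-0.129), Cox7c (-0.104), Ndufc1 (-0.193) and Ndufs1 (0.149). The cause of these changes was not tested, except that fewer clones are tested without the dim ones. No paired analysis was possible because the serum labels carry no mouse names. Signal near the empty spots limits what 14 of the 86 clones can show.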
